A study of Mus musculus with 12 samples.

Results

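Hair cells sorted from the mouse cochlea at E18.5 (embryonic day) were split by their own transcripts into a vestibular and a cochlear class, and the summed transcriptomes of the 2 classes were compared. Members were chosen by their measured levels of 27 genes. The rule first kept a cell whose mean level of *Calml4*, *S100a1*, *Lhx3*, *Rasd2* and *Acbd7* exceeded its mean level of the neuronal genes *Nefl*, *Nefm*, *Stmn2*, *Stmn3* and *Ina*. It then called a cell vestibular when its mean z-score over *Prr15*, *Skor1*, *Dnah5*, *Tekt1*, *Dnajb13*, *Ccdc81* and *Nme9* was above the higher of an inner hair cell score (*Tbx2*, *Chrna1*, *Ecel1*, *Chst2*, *Brip1*) and an outer hair cell score (*Fgfr3*, *Fzd9*, *Cdh1*, *Sstr2*, *Cacng2*). Of 762 kept cells at E18.5, and 4226 in the series, 72 passed the hair cell step, and 26 of these were vestibular and 46 cochlear.

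All these cells came from PVcre;Ai14 mice, in which Cre driven from the parvalbumin locus switches on the red reporter tdTomato, and both classes carry the same alleles. Cochleae of several animals were pooled for each experiment, and reporter-positive single cells were sorted into the wells of 2 plates (plates 1 and 2) for full-length Smart-seq2 sequencing. The study set out to profile spiral ganglion neurons, and the labels give the tissue as cochlea, so no label places a cell in a vestibular organ. Plate 1 held 13 vestibular and 25 cochlear cells, and plate 2 held 13 and 21. Vestibular cells thus made up 34.2% of the hair cells of plate 1 (exact binomial 95% interval 19.6% to 51.4%) and 38.2% of those of plate 2 (22.2% to 56.4%), with intervals that cover counting error only.

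Hair cells turn movement of an actin-based stereocilia bundle into current through transduction channels at the stereocilia tips. Vestibular hair cells keep a kinocilium, the true cilium beside the bundle, which carries parts of the motile axoneme, whereas auditory hair cells lose theirs as they mature. Vestibular bundles are coupled to an otoconial membrane or cupula, and cochlear bundles to the tectorial membrane.

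Hair cell identity was checked with genes outside the rule. Each of the 26 vestibular cells had reads of *Pou4f3*, a transcription factor of hair cell survival, and of *Otof*, the calcium sensor of hair cell exocytosis. Both genes also had reads in 40 of the 46 cochlear cells and in none of the other 6. These 6 cells, 2 in plate 1 and 4 in plate 2, had a mean of the hair cell list between 0.0406 and 0.782 on the natural log scale, against 1.17 or more in the 40, and all 6 had the higher outer score. Their neuronal genes were lower still, which let them pass the rule, so they go against the name of the class, and results are given with and without them. Among the 40, 28 had the higher inner score and 12 the higher outer score.

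The vestibular score minus the higher cochlear score ran from 0.181 to 2.47 in vestibular cells (median 0.96) and from -2.88 to -0.124 in cochlear cells (median -1.29). Just inside the threshold lay a vestibular cell at 0.181, and just outside it a cochlear cell at -0.124. Within 0.5 of the threshold were 8 of the 26 vestibular and 7 of the 46 cochlear cells, 7 of the 8 in plate 1, and 5 of the 7 were cells lacking hair cell genes.

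**Figure D1:**
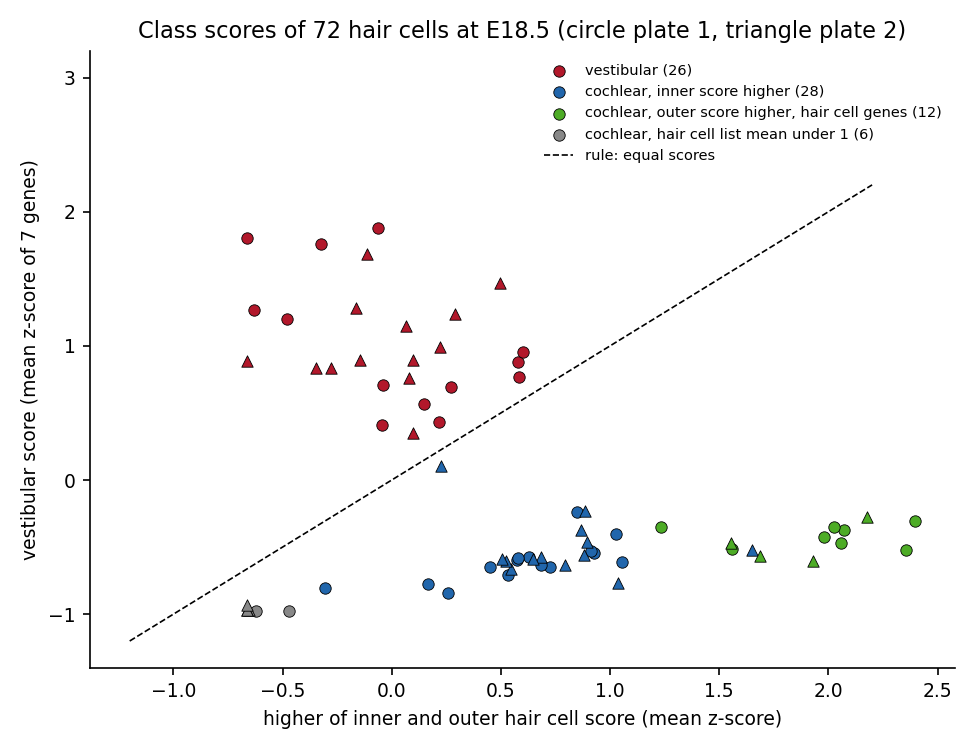
Vestibular score against the higher of the inner and outer hair cell scores (mean z-scores) for each of 72 hair cells; colours give the class, circles plate 1 and triangles plate 2. All 26 vestibular cells lie above the dashed line of equal scores, and the 6 cells lacking hair cell genes sit at the lower left, low on both axes.

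The genes of the rule chose the classes, so their levels describe the split and were not tested. In CPM (summed counts relative to library total, scaled by TMM factors), the axonemal dynein heavy chain *Dnah5* stood at 284 and 315 in the vestibular sums of plates 1 and 2, against 0.95 and 7.32 in the cochlear sums. *Ccdc81*, a centrosomal protein gene, gave 471 and 487 against 0.119 and 2.44, with reads in 25 of 26 vestibular and 3 of 40 cochlear cells. The transcriptional corepressor *Skor1* gave 227 and 251 against 36.1 and 42.1. These 3 genes were high in both vestibular sums, but *Skor1* still had reads in 38 of the 40 cochlear cells with hair cell genes. Genes of the inner list were not absent from vestibular cells. The T-box factor *Tbx2* reached 145 and 147 CPM in vestibular sums, near the 150 and 193 of inner-scoring cells, and *Brip1* was higher in the vestibular sums (375 and 536) than in the inner-scoring ones (217 and 211). The outer-list receptor *Fgfr3* was close to 0 in the vestibular sums (0.268 and 0) and stood at 273 and 374 in outer-scoring cells.

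The vestibular sums held 3839425 and 4472120 counts, and the cochlear sums 8277491 and 7605414. Median counts per cell were 325056 and 347056 in vestibular and 339238 and 385101 in cochlear cells. Median genes per cell were 9922 and 10973 in vestibular and 11085 and 10610 in cochlear cells. Under 8000 genes, a boundary set after seeing the data, were held by 5 and 5 vestibular and by 0 and 5 cochlear cells. A floor of 3 counts over both plates equals 0.361 and 0.189 CPM in vestibular and cochlear cells, before TMM scaling. With 2 plates per class, p-values of edgeR's quasi-likelihood test (adjusted by Benjamini-Hochberg over all genes outside the rule) measure only how well a difference repeated between plates, which may be technical. The same cells also made the classes, so a gene that varies together with the rule's genes had to differ to some extent.

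Vestibular hair cells were higher in genes of the motile axoneme, in the transduction subunit *Cib3*, in *Ocm*, *Spp1*, *Aldh1a3*, *Stk32a* and *Otoa*, and lower in *Gata3*, *Calb1*, *Kcnj13*, *Pkhd1l1* and *Slc26a5*. Of these, *Kcnj13* was not called lower against outer-scoring cells with hair cell genes. *Slc26a5* had a read in only 10 of 40 cochlear cells with hair cell genes. *Ocm* had a read in 13 of 26 vestibular cells, and its call was lost without cells with under 8000 genes. *Spp1* was high in few cells, with a median of 0.0791 and a highest value of 177 counts per 10,000 in vestibular cells. Of 13395 genes tested outside the rule, 792 were called higher in vestibular cells (5.91%) and 647 lower (4.83%) at an adjusted p under 0.05. Without the 6 cells lacking hair cell genes, 797 of 12960 were higher (6.15%) and 641 lower (4.95%). In the same direction, 1137 genes were called in both fits, which is 79.0% of the first set and 79.1% of the second. The sums of the 2 classes did not overlap for 55.6% of all genes tested, so non-overlap alone marks no gene. In either direction 10.7% of genes were called. Leaving out all cells within 0.5 of the threshold, which left 6 vestibular cells in plate 1 and 12 in plate 2, gave 109 calls.

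Motile cilium genes were higher in vestibular cells in each structural part of the axoneme. The 7 lists, named for the outer and inner dynein arms, their assembly factors, the radial spokes, the central pair, the nexin-dynein regulatory complex and the microtubule inner proteins, held 109 genes of the table, of which 4 are genes of the rule (*Dnah5*, *Tekt1*, *Dnajb13* and *Nme9*) and 97 others were tested. Of the 97, 64 were called higher, none lower and 33 not called, against 5.91% higher among all genes tested. Their median log2 fold change was 1.66, against -0.0039 for all genes tested, and 95 of 97 were above 0. The remaining 8 did not pass the filter on low counts. Without the 6 cells, 60 were higher (median 1.42), and at an adjusted p under 0.05, 55 were higher against inner-scoring cells only (background 5.43% higher, 4.31% lower, 9.75% in all) and 54 against outer-scoring cells with hair cell genes only (8.21% and 5.81%), with none lower in any of these fits. Since 4 genes of the rule are axonemal themselves, the classes were also made with *Prr15* and *Skor1* as the only vestibular genes, which left 71 of 72 cells in their class. Both are genes of the rule, so these nearly identical classes give no independent check of the axonemal difference. Axonemal calls were not counted under them. Cochlear sums also held glial and mesenchymal transcripts that vestibular sums held less of, as given with those lists, and their part in these differences was not tested.

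Within the dynein arms, 10 of 16 outer arm and docking genes and 8 of 11 inner arm genes were called. The outer arm heavy chain *Dnah9* (chr11:65831282-66168551, minus strand, mm10) stood at 191 and 131 CPM in the vestibular sums of plates 1 and 2, and at 12.8 and 10.2 CPM in the cochlear sums. Both vestibular values were far above both cochlear ones (log2 difference 3.79, SE 0.30, edgeR adjusted p = 0.0016). *Dnaic1*, an outer arm intermediate chain, gave 86.1 and 128 CPM against 14.6 and 10.8 (log2 3.06, SE 0.32, adjusted p = 0.0031). Its inner arm counterparts included *Dnah6*, another heavy chain, at 168.1 and 162 CPM against 18.3 and 24.0 (log2 2.95, SE 0.24, adjusted p = 0.0017). Dynein arms are built in the cytoplasm by assembly factors, of which 7 of 16 were called. The zinc finger factor *Zmynd10* had the largest fold change of the 7, at 75.6 and 48.9 CPM against 4.16 and 4.11 (log2 3.90, SE 0.40, adjusted p = 0.0029).

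Other parts of the axoneme moved in the same direction. For the radial spokes 8 of 12 were called, for the central pair 8 of 12, for the nexin-dynein regulatory complex 8 of 11, and for tektins and microtubule inner proteins 15 of 19. *Hydin*, a giant central pair protein, had 357 and 453 CPM in vestibular and 67.8 and 87.6 CPM in cochlear sums (log2 2.37, SE 0.23, edgeR adjusted p = 0.0027). *Tekt2*, a tektin of the doublet microtubules (chr4:126322121-126325688, minus strand), had 631 and 715 CPM against 107 and 160 (log2 2.32, SE 0.25, adjusted p = 0.0036). *Tekt4* rose by more, from 16.6 and 20.2 to 148 and 146 CPM (log2 2.99, SE 0.23, adjusted p = 0.0016). Cochlear sums thus held reads of these genes too, at a lower level in both plates.

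Genes that cilia of every kind need showed smaller differences. For intraflagellar transport, the traffic that builds all cilia, 12 of 32 were higher and none lower, with a median log2 fold change of 0.92. Of all genes tested 5.91% were higher and 4.83% lower. *Ift74*, a subunit of the transport train, gave 199 and 286 CPM against 96.2 and 72.6 (log2 1.51, SE 0.26, edgeR adjusted p = 0.015). Among transcription factors of ciliated cells 2 of 12 were called, beside 10.7% of all genes. *Foxj1*, the master regulator of motile cilia (chr11:116330704-116335399, minus strand), gave 134 and 109 CPM against 40.1 and 40.9 (log2 1.58, SE 0.22, adjusted p = 0.0080), and *Rfx3*, an RFX factor of ciliary genes, gave 260 and 282 against 135 and 122 (log2 1.07, SE 0.18, adjusted p = 0.015). *Rfx3* missed the threshold against outer-scoring cells with hair cell genes alone (edgeR adjusted p = 0.14).

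**Figure D2:**
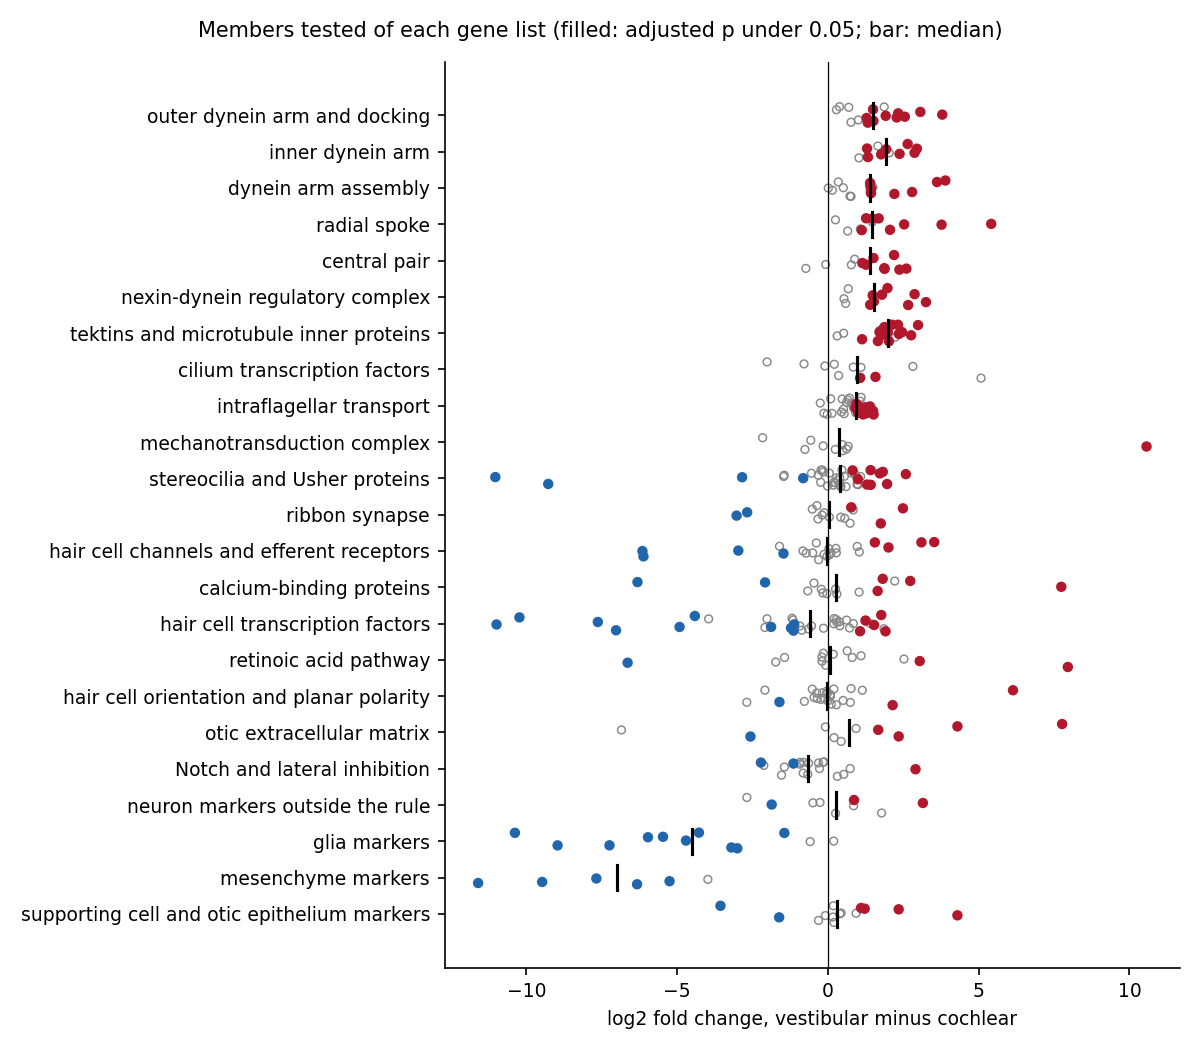
Log2 fold change, vestibular minus cochlear, of each member tested in the gene lists; filled points passed an adjusted p under 0.05 (red higher, blue lower in vestibular cells), open points did not, and a bar marks each list's median. The 7 axonemal lists at the top lie to the right of 0 with no filled blue point, and every filled point of the glia and mesenchyme lists is blue.

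RFX factors bind the X-box, a pair of inverted arms. Promoters of axonemal genes were therefore read from RefSeq (GRCm38.p6, 250 bases before to 50 after the start, first promoter listed per gene), and 80 of the 97 genes had one. The single arm GTTGCC was present on either strand in 33 of these 80 promoters (41.2%), in 1369 of the 10524 promoters of genes tested and in 12.7% of all 27025 promoters. Of the 609 promoters of genes called higher 21.5% held it, and of the 487 of genes called lower 9.24%. Within the axonemal lists, 22 of the 51 promoters of genes called higher held it (43.1%), near the 41.2% of all 80. A whole X-box, written as GTTNCC and, after 2 bases of any kind, GGNAAC, was rare, in 2 of the 80 and in 0.444% of all promoters. For comparison, the forkhead motif GTAAACA stood in 3 of the 80 (3.75%) and in 3.55% of all, and the E-box CAGCTG in 14 of the 80 and in 16.1% of all. A match describes letters only, and overlap between a whole X-box and its own arm was allowed. The sequences below lie before the start site, are written 5′ to 3′ on the strand of the gene, and show in capitals the whole X-box (*Ccdc151* and *Iqca*) or its arm in the called axonemal genes of largest fold change that had one there.
Ccdc151, chr9:22002635-22002694, minus strand: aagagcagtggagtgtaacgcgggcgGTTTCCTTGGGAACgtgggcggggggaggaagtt
Iqca, chr1:90153500-90153559, minus strand: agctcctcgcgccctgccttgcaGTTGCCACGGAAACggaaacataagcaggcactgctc
Lrrc23, chr6:124779738-124779797, minus strand: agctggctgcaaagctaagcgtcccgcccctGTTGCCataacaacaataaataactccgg
Dnah10, chr5:124725025-124725084, plus strand: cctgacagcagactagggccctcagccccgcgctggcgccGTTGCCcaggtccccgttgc
Spag16, chr1:69826836-69826895, plus strand: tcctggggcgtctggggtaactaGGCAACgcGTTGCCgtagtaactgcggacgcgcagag

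All 5 of these genes were called higher in vestibular cells. *Ccdc151*, which anchors the outer dynein arm docking complex, had 143.2 and 172 CPM against 26.5 and 37.9 (log2 2.28, SE 0.26, edgeR adjusted p = 0.0043). *Iqca*, of the nexin-dynein regulatory complex, had 77.8 and 37.6 CPM against 5.82 and 6.17 (log2 3.25, SE 0.47, adjusted p = 0.0084). *Spag16*, a central pair gene whose window holds the arm on both strands, had 73.5 and 48.9 CPM against 5.58 and 14.4 (log2 2.60, SE 0.52, adjusted p = 0.026).

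In the transduction machinery 1 of 10 genes was called higher and none lower, with a median log2 of 0.36, beside 10.7% of all genes called. Without the 6 cells 1 was higher and 1 lower (6.15% and 4.95% of all genes in that fit). Against outer-scoring cells with hair cell genes 2 were higher and 4 lower (8.21% and 5.81% of all genes in that fit). *Cib3*, a calcium- and integrin-binding protein of the transduction complex (chr8:72204335-72212837, minus strand), stood at 297 and 512 CPM in vestibular and at 0.475 and 0 CPM in cochlear sums. The classes were far apart in both plates (log2 difference 10.56, SE 0.65, edgeR adjusted p = 0.0011), and the call held against inner-scoring and outer-scoring cells alone. Its paralog *Cib2* was present in both classes at 686 and 782 against 992 and 1169 CPM (log2 -0.57, SE 0.19, adjusted p = 0.11). It passed the threshold against outer-scoring cells with hair cell genes alone (edgeR adjusted p = 0.0080). The channel genes *Tmc1* (107 and 109 against 74.8 and 78.0 CPM, adjusted p = 0.17) and *Tmc2* (78.0 and 71.5 against 49.98 and 46.5 CPM, adjusted p = 0.14) were not called, and *Tmc1* was lower in outer-scoring cells with hair cell genes, at 12.9 and 18.2 CPM (adjusted p = 0.00088 against vestibular).

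For stereocilia and Usher proteins, 9 of 41 tested were called higher and 4 lower (5.91% and 4.83% of all genes), with a median log2 of 0.39. *Ush1c*, the harmonin scaffold of the tip link (chr7:46195350-46238503, minus strand), gave 596 and 640 CPM in vestibular against 125 and 79.8 CPM in cochlear sums (log2 2.58, SE 0.26, edgeR adjusted p = 0.0027). The actin bundlers *Pls1* (1286 and 1046 against 320 and 274 CPM, log2 1.96, adjusted p = 0.0030) and *Espn* (573 and 427 against 140 and 161 CPM, log2 1.72, adjusted p = 0.0059) were higher too. These genes were well expressed in both classes. The actin bundler *Fscn2* and *Grxcr2*, a taperin-binding protein of the bundle base, were called as well (both log2 1.42), but not once cells with under 8000 genes were left out (edgeR adjusted p = 0.26 and 0.60).

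Lower in vestibular cells was *Pkhd1l1*, a coat protein of the stereocilia surface (chr15:44457494-44601369, plus strand), with 0.536 and 0 CPM against 189 and 140. Its 2 vestibular reads stood against 2681 cochlear reads, a ratio of 701 relative to the class totals with a counting interval of 194 to 5800, and 35 of 40 cochlear cells with hair cell genes had a read against 1 of 26 vestibular cells. Counting intervals, and folds against a floor of 3 counts, treat each read as independent and leave out variation between cells and plates. *Myo3a*, a motor of stereocilia tips, gave 24.1 and 6.33 CPM against 111 and 105 (log2 -2.85, SE 0.55, edgeR adjusted p = 0.023). *Grxcr1* was slightly lower (log2 -0.82, adjusted p = 0.049). The leukocyte plastin *Lcp1*, also lower, had 80.3 CPM in the cochlear sum of plate 2 and 1.07 or less in its inner- and outer-scoring cells with hair cell genes, so that value came from the cells lacking hair cell genes.

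At the ribbon synapse 3 of 15 genes were higher and 2 lower, beside 5.91% and 4.83% of all genes. *Cabp2*, a calcium-binding modulator of presynaptic calcium channels (chr19:4081578-4087340, plus strand), gave 1181 and 1032 CPM against 159 and 233 (log2 2.49, SE 0.25, edgeR adjusted p = 0.0027). Within the cochlear class its level was higher in inner-scoring cells, at 268 and 388 CPM, against 0.392 and 3.95 in outer-scoring cells with hair cell genes. *Slc17a8*, the vesicular glutamate transporter VGLUT3, followed the same order, with 357 and 285 CPM against 74.2 and 115 (log2 1.75, SE 0.27, adjusted p = 0.010). *Otof* at 2871 and 3316 against 1656 and 1938 CPM was called (log2 0.77, edgeR adjusted p = 0.042), but not without the 6 cells lacking hair cell genes (adjusted p = 0.19).

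The presynaptic scaffold *Rims2* was lower, with 62.5 and 29.4 CPM against 306 and 276 (log2 -2.68, SE 0.36, edgeR adjusted p = 0.0065). So was complexin 1, *Cplx1*, at 3.22 and 9.73 CPM against 47.0 and 59.4 (log2 -3.03, SE 0.55, adjusted p = 0.018). The other sorted cells of the plates held *Cplx1* at 878 CPM on average. The calcium channel *Cacna1d* was not called, with 287 and 240 CPM against 307 and 365 (adjusted p = 0.32).

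Among channels and efferent receptors 4 of 23 were higher and 4 lower, beside 5.91% and 4.83% of all genes. *Kcnma1*, the large-conductance calcium-activated potassium channel, had 97.8 and 41.4 CPM against 4.39 and 11.7 (log2 3.10, SE 0.62, edgeR adjusted p = 0.026). *Kcna10*, a voltage-gated potassium channel, gave 1833 and 818 CPM against 271 and 383 (log2 2.01, adjusted p = 0.025). The calls of *Kcnma1* and *Kcna10* were lost without cells with under 8000 genes (edgeR adjusted p = 0.056 and 0.079).

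Inwardly rectifying *Kcnj13* (chr1:87386363-87394729, minus strand) was lower in vestibular cells, with 5.36 and 1.58 CPM against 185 and 282 (log2 -6.12, SE 0.51, edgeR adjusted p = 0.0017). Its cochlear reads lay in inner-scoring cells, at 310 and 469 CPM, and outer-scoring cells with hair cell genes held 4.71 and 6.32 CPM, which did not pass the test against vestibular cells (adjusted p = 0.73). *Scn11a*, a sodium channel, showed the opposite order among cochlear cells, with 33.5 and 33.9 CPM in inner-scoring cells, 327 and 280 in outer-scoring ones and 37.3 and 29.6 in vestibular ones. The small-conductance channel *Kcnn2* gave 7.78 and 4.30 CPM against 40.4 and 53.3 (log2 -2.97, adjusted p = 0.010). *Slc26a5*, which encodes the outer hair cell motor prestin, had 1 vestibular read and 164 cochlear reads, a ratio of 85.8 with a counting interval of 15.2 to 3410.

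Of 15 calcium-binding protein genes 4 were higher and 2 lower, beside 5.91% and 4.83% of all genes. *Ocm*, encoding oncomodulin (chr5:144019804-144026670, minus strand), gave 431 and 1139 CPM against 1.66 and 5.65 (log2 7.74, SE 0.75, edgeR adjusted p = 0.0027). A read was present in 13 of 26 vestibular and 18 of 40 cochlear cells with hair cell genes, with at most 136 and 0.858 counts per 10,000 in a cell, and leaving out cells with under 8000 genes ended the call (adjusted p = 0.12). *S100b* had 177 and 236 CPM against 36.1 and 25.7 (log2 2.73, adjusted p = 0.0027), and calmodulin *Calm2* had 3747 and 4869 against 970 and 1457 (log2 1.82, adjusted p = 0.0078).

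*Calb1*, encoding the calcium buffer calbindin (chr4:15881264-15908064, plus strand), was lower in vestibular cells, at 30.3 and 2.26 CPM against 896 and 1633 (log2 -6.32, SE 1.01, edgeR adjusted p = 0.012). A read was present in 4 of 26 vestibular cells and in 40 of 40 cochlear cells with hair cell genes. *Pvalb*, the gene whose locus drives the Cre used for sorting, gave 98.1 and 79.4 CPM against 301 and 446 (log2 -2.08, SE 0.26, adjusted p = 0.0052). Calretinin, *Calb2*, was not called (212 and 242 against 294 and 422 CPM, adjusted p = 0.13), and its level in vestibular cells lay between those of inner-scoring (445 and 694) and outer-scoring cells (99.6 and 41.1).

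**Figure D3:**
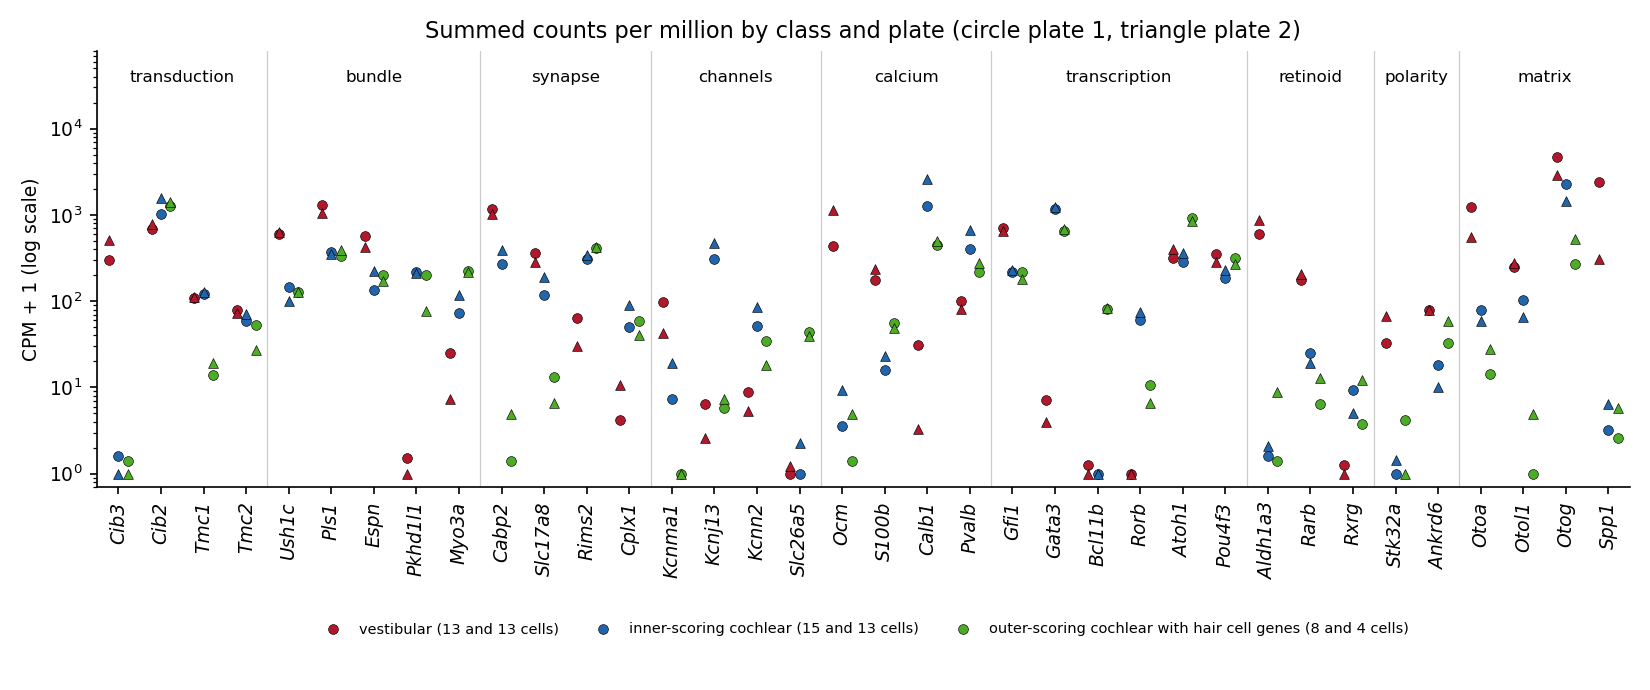
Summed CPM plus 1 on a log scale for named genes by function, with 1 point per class and plate (circles plate 1, triangles plate 2) for vestibular, inner-scoring and outer-scoring cochlear cells with hair cell genes. *Cib3*, *Ocm*, *Aldh1a3* and *Spp1* are high in vestibular sums alone, *Gata3* and *Calb1* in both cochlear groups, and *Kcnj13* in inner-scoring sums.

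Hair cell transcription factors included 5 of 36 called higher and 10 lower (5.91% and 4.83% of all genes), with a median log2 of -0.59. The zinc finger factor *Gfi1*, needed for hair cell survival (chr5:107716657-107726036, minus strand), gave 713 and 651 CPM against 193 and 167.6 (log2 1.91, SE 0.19, edgeR adjusted p = 0.0027). *Six2*, *Sox21* and *Sox4* were also higher, by log2 1.77, 1.53 and 1.25. The early determinant *Atoh1* did not differ by the test in the sums (318 and 407 against 442 and 354 CPM, adjusted p = 0.74). *Pou4f3* (353 and 286 against 207 and 179 CPM, adjusted p = 0.067) and *Sox2* (54.2 and 68.3 against 46.7 and 45.9 CPM, adjusted p = 0.40) also missed the threshold.

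*Gata3*, a zinc finger factor of cochlear development (chr2:9857078-9890034, minus strand), was at 6.17 and 2.94 CPM in vestibular and 917 and 855 CPM in cochlear sums (log2 -7.63, SE 0.37, edgeR adjusted p = 0.00084). It had a read in 7 of 26 vestibular cells and 40 of 40 cochlear cells with hair cell genes, and it was high in inner- and outer-scoring cells alike (1183 and 1239, and 656 and 692 CPM). The gene *4930412O13Rik* lies within it on the other strand and was also lower, and since counting by strand was not stated, the reads of these genes cannot be told apart. The related *Gata2* and the nuclear receptor *Rorb* had no vestibular read and were at least 69.8-fold and 117-fold lower, against a floor of 3 counts over both plates. *Rorb* had a read in 29 of 40 cochlear cells with hair cell genes. *Gata2* had a read in only 8 of the 40 (median 0 counts per 10,000), and in 4 of the 6 cells lacking hair cell genes (median 1.6). *Bcl11b*, a factor of outer hair cells (chr12:107910403-108003602, minus strand), gave 0.268 and 0 CPM against 79.6 and 82.2 in outer-scoring cells, and was 0 in both inner-scoring sums. *Lmo3* (log2 -4.41), *Nr2f1* (-1.88), *Barhl1* (-1.22), *Hes6* (-1.14) and *Sox11* (-1.12) were lower as well, and *Nr2f2* (-4.92) only with the 6 cells lacking hair cell genes (edgeR adjusted p = 0.10 without them).

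In the retinoic acid pathway, whose ligand patterns the sensory organs of the ear, 2 of 14 genes were higher and 1 lower. Among all genes tested these shares were 5.91% and 4.83%. *Aldh1a3*, a retinoic acid synthesising enzyme (chr7:66390890-66427517, minus strand), gave 597 and 880 CPM against 1.43 and 4.50 (log2 7.96, SE 0.54, edgeR adjusted p = 0.0012), with a read in 26 of 26 vestibular and 10 of 40 cochlear cells with hair cell genes. The other sorted cells of the plates averaged 772 CPM. The receptor *Rarb* gave 173 and 206 CPM against 19.2 and 26.3 (log2 3.04, SE 0.26, edgeR adjusted p = 0.0018), and the receptor *Rxrg* had 1 vestibular read against 231 cochlear reads. *Rxrg* had a read in 14 of 40 cochlear cells with hair cell genes (median 0 counts per 10,000) and in 4 of the 6 lacking them (median 0.52). *Dhrs3*, a retinaldehyde reductase chosen after its values were seen, was at 280 and 223 CPM against 10.7 and 76.2 and passed the threshold only without the 6 cells (edgeR adjusted p = 0.088 and 0.0011).

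Of 25 genes of hair cell orientation and planar polarity 2 were higher and 1 lower, a share near the 10.7% of all genes called. *Stk32a*, a kinase that sets hair cell orientation in vestibular organs, gave 31.6 and 66.3 CPM against 1.07 and 0.257 (log2 6.14, SE 0.74, edgeR adjusted p = 0.0049). *Ankrd6*, a diversin homologue, gave 78.3 and 77.2 CPM against 19.9 and 14.9 (log2 2.15, adjusted p = 0.0068). *Insc*, encoding inscuteable, was lower, at 143.2 and 254 CPM against 580 and 621 (log2 -1.61, adjusted p = 0.019). The orientation factor *Emx2* (6.43 and 0.679 against 13.5 and 16.2 CPM) was not called (edgeR adjusted p = 0.22).

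Otic matrix genes held 4 of 10 higher and 1 lower, beside 5.91% and 4.83% of all genes. *Otoa*, encoding the attachment protein otoancorin (chr7:121081650-121163097, plus strand), gave 1218 and 546 CPM against 50.2 and 39.0 (log2 4.29, SE 0.42, edgeR adjusted p = 0.0027). *Otol1*, the otoconial collagen-like otolin, gave 248 and 274 CPM against 62.9 and 39.0 (log2 2.35, adjusted p = 0.0043), and otogelin, *Otog*, gave 4720 and 2903 against 1441 and 944 (log2 1.67, adjusted p = 0.019). These 3 genes were also higher in inner-scoring than in outer-scoring sums. *Otoa* and *Otol1* also stand in the list of supporting cell and otic epithelium markers.

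*Spp1*, encoding osteopontin (chr5:104435118-104441050, plus strand), gave 2415 and 311 CPM against 5.22 and 7.19, so its level differed widely between the vestibular sums of the plates (log2 7.77, SE 1.06, edgeR adjusted p = 0.0070). Vestibular cells also differed widely from each other, and the median vestibular cell had 0.0791 counts per 10,000 and the highest 177, beside a median of 0.0275 in cochlear cells with hair cell genes. The other sorted cells of the plates averaged 4647 CPM of it, above either vestibular sum, while both cochlear sums of the same plates stayed under 8 CPM. *Tecta*, the tectorial membrane protein tectorin alpha, was lower in vestibular cells at 1214 and 645 CPM against 7052 and 3916 (log2 -2.57, SE 0.39, adjusted p = 0.0099), and was high in inner-scoring cells (11700 and 6112). It was not lower throughout: outer-scoring cells with hair cell genes held 398 and 1566 CPM (adjusted p = 0.94 against vestibular), and the log2 difference was 0.81 against all outer-scoring cells and 0.64 once hair cells high in glial counts were left out. *Tectb* was split between plates in vestibular cells (1923 and 0 CPM) and was not called. The otoconial protein *Oc90*, chosen after its values were seen, gave 741 and 1165 CPM against 1609 and 43.9, and with the 6 cells left out it passed the threshold (edgeR adjusted p = 0.00051).

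In the Notch list 1 of 19 genes was higher, near the 5.91% of all genes, and 2 were lower (4.83% of all genes). The Notch ligand-like *Dner* gave 332 and 282 CPM against 49.6 and 31.9 (log2 2.90, SE 0.27, edgeR adjusted p = 0.0024), and the ligand *Jag1*, which supporting cells also express, gave 145 and 93.7 against 677 and 428 (log2 -2.22, adjusted p = 0.0079). Of 16 genes that mark vestibular hair cell subtypes 5 were higher and 1 lower. *Tmem117* gave 228 and 265 CPM against 77.0 and 65.1 (log2 1.78, adjusted p = 0.0043).

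The genes of largest fold change were nearly absent from the other class. No cochlear read was found for *Otop1*, an otopetrin proton channel needed for otoconia (chr5:38275972-38304217, plus strand), which had 58.7 and 72.6 CPM in vestibular sums, at least 344-fold higher against the floor of 3 counts over both plates. The same held for *8430422H06Rik* (at least 215-fold), the WNT agonist *Rspo3* (at least 190-fold), *Sox1* (at least 160-fold), *Skor2*, a paralog of *Skor1* (at least 131-fold), and *Mei1* (at least 131-fold). Many vestibular cells lacked them: *Otop1* had a read in 13 of 26. *8430422H06Rik*, *Sox1* and *Skor2* had one in 17 of 26, and *Rspo3* and *Mei1* in 11 of 26. The protocadherin *Pcdh20* gave 571 and 712 CPM against 1.07 and 0.129, and all its cochlear reads came from cells lacking hair cell genes. *AI593442*, *Lpo*, *Gucy2d*, *Gm4791* and *Cib3* completed the 12 genes of largest increase. *Lpo*, a peroxidase, had 269 CPM in plate 1 and 29.2 in plate 2, with a read in 11 of 26 vestibular cells.

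The urea transporter *Slc14a1* had no vestibular read and 165 and 123 CPM in cochlear sums, at least 410-fold lower in vestibular cells. It had a read in 39 of 40 cochlear cells with hair cell genes. *Trh*, encoding thyrotropin-releasing hormone, was at least 245-fold lower, with 89.8 and 83.0 CPM in cochlear sums and 152 and 136 in inner-scoring ones. *Plxnd1* (at least 91.1-fold), *Ccdc3* (at least 93.7-fold) and *4930412O13Rik* (at least 97.0-fold) had no vestibular read either, though reads of *4930412O13Rik* cannot be told from those of *Gata3*. *Lox*, the collagen cross-linker lysyl oxidase, had 1 vestibular read against 5828, and its level was 620 and 560 CPM in inner-scoring cells and 16.47 and 56.9 in outer-scoring ones. *Lum* and *Rorb*, given with their lists, also ranked among the 12 genes of largest decrease. So did *Sostdc1*, *Nrp1*, *Lcp1* and *Gjc3*, but these did not pass the filter on low counts once the 6 cells were left out.

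Markers of other cells differed between the classes in the same plates. Their counts stand beside 5.91% higher and 4.83% lower among all genes tested. Of 12 glial genes 10 were lower in vestibular cells and none higher, and their summed level was 582 and 515 CPM in vestibular and 2580 and 3181 CPM in cochlear sums. Without the 6 cells the cochlear sums fell to 1576 and 1002 CPM, and 4 of the 9 tested were lower. *Gfra3* was at 0 in both vestibular sums and at 13.9 and 6.55 CPM in the cochlear sums. Of 6 mesenchymal genes tested 5 were lower, with summed levels of 45.3 and 3.13 against 3371 and 1987 CPM, and 1317 and 562 CPM without the 6 cells. *Lum* alone, a matrix proteoglycan, gave 2126 and 298 CPM in the cochlear sums, whereas the mesenchymal factor *Pou3f4* was at 0 in every sum of both classes. *Lum* was not confined to cells lacking hair cell genes, and had a read in 26 of the 40 cochlear cells with them. It gave 866.5 and 468 CPM in inner-scoring and 0.78 and 97.2 CPM in outer-scoring cells. Without the 6 cells *Lum* was still called lower (log2 -10.24, edgeR adjusted p = 0.00014). By group, glial genes summed to 2073 and 1159 CPM in inner-scoring cells and to 570 and 394 CPM in outer-scoring cells with hair cell genes. Their part in the genes lower in vestibular cells was not tested. Neuron markers outside the rule summed to 306 and 322 CPM in vestibular and 549 and 499 CPM in cochlear sums, against 6806 and 6813 CPM in the other sorted cells, and 2 of 9 were higher and 1 lower. Of 14 supporting cell and otic epithelium markers 4 were higher, *Otoa* and *Otol1* among them, and 2 lower, both of them gap junction genes. This list summed to 9035 and 5086 CPM in vestibular and 9077 and 4561 CPM in cochlear sums. Without the 6 cells the cochlear sums were 6513 and 5516 CPM, and the other sorted cells held 4168 and 4382 CPM. The part of supporting cell transcripts in the genes higher in vestibular cells was not tested. *Gjb2* gave 95.7 and 90.3 CPM in vestibular, 2004 and 1621 in inner-scoring and 10.2 and 77.5 in outer-scoring sums, and *Gjb6* gave 53.4 and 82.1, 428 and 257, and 0 and 10.3. None of 9 immediate early genes and of 1 erythrocyte gene tested was called.

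Vestibular cells differed among themselves in how many genes they held. Of the 26, 10 cells (5 per plate) had 7410 genes or fewer and 16 (8 per plate) had 8298 or more, and a boundary of 8000 genes was set after seeing this. The 10 had median counts of 260749 and 233687 per cell, and the 16 had 338836 and 436204.5. No cell of the 10 had a read of *Atoh1*, which all 16 others had, at 446 and 543 CPM. *Otol1* (348.5 and 366 CPM), *Otop1* (82.4 and 96.9 CPM) and the rule gene *Fzd9* (75.6 and 109 CPM) were also without a read in the 10. The bundle genes *Fscn2* (962 and 829 against 238 and 175 CPM) and *Grxcr2* (1492 and 2841 against 806 and 240 CPM) were higher in the cells with fewer genes. So were *Gfi1* (1003 and 1241 against 554 and 434 CPM) and *Otof* (4135 and 4863 against 2190 and 2722 CPM). *Ocm* was high in those of plate 2 (4338 CPM) and present in both kinds in plate 1 (520 and 373 CPM). These cells were divided by their own transcripts, so the values describe them and were not tested. *Pou4f3* was present in all 26. Under 8000 genes were also held by 3 of the 40 cochlear cells with hair cell genes, all in plate 2.

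**Figure D4:**
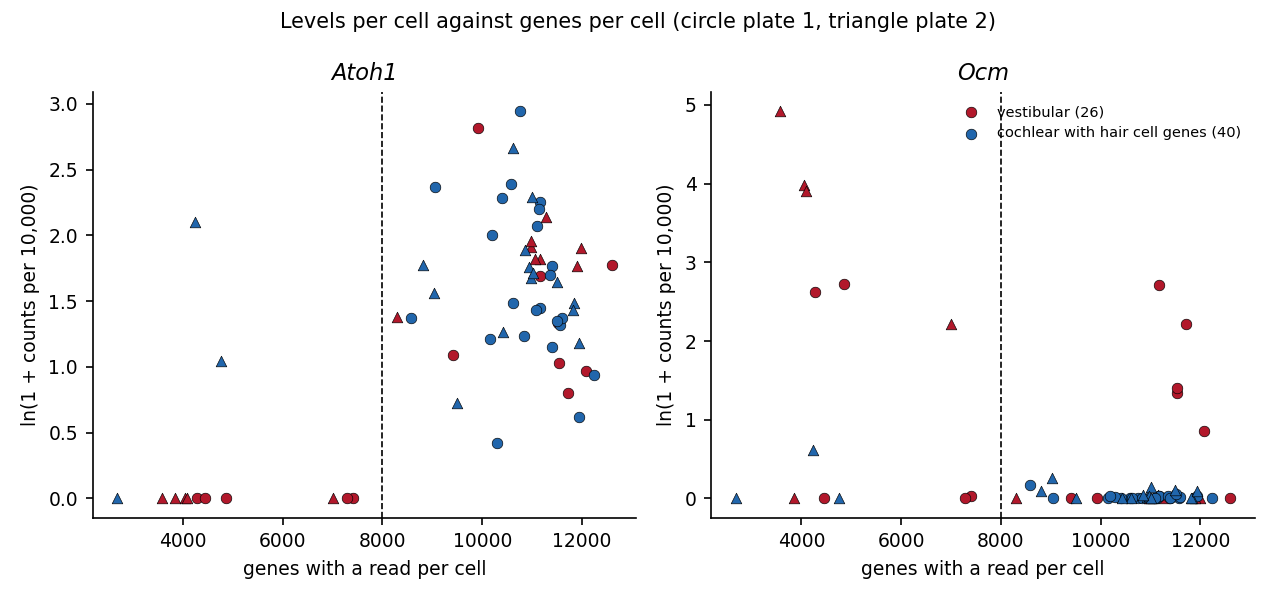
Level per cell of *Atoh1* and *Ocm*, as ln(1 + counts per 10,000), against the number of genes with a read, for 26 vestibular and 40 cochlear cells with hair cell genes; the dashed line marks 8000 genes. The 10 vestibular cells left of the line have *Atoh1* at 0, and the highest *Ocm* values are among them.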

How the data were processed

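Sorted tdTomato-positive cells of 12 plates were sequenced by Smart-seq2. The authors deposited counts, whole reads per gene and well, after mapping to mm10 with STAR, keeping uniquely mapped reads and counting with featureCounts, and used Scanpy downstream; the strand setting was not given in the sources used here. The table held 24489 genes and 92 ERCC sequences in 4992 wells, of which the 384 wells of 1 plate matched no sample and were not used.

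Cells with over 1000 genes and under 5% ERCC reads were kept, levels were ln(1 + counts per 10,000), and classes followed the rule of 27 genes given in the report. No doublet caller was run. The members and gene lists were chosen with earlier results of these data known. Counts were summed per class and plate, filtered with filterByExpr, scaled by TMM and tested by edgeR's quasi-likelihood test (version 4.0.16, R 4.3.3), with Benjamini-Hochberg adjustment over the genes outside the rule. Cells were not replicates, and n was 2 plates per class, for which no label states separate animals. Genes named were the 27 of the rule, the called members of each list with the 4 largest changes first, a fixed set of defining members, and the 12 largest increases and decreases among called genes at 20 CPM or more that moved alike in both plates. Alternatives used DESeq2 1.42.0, limma 3.58.1, other scalings, filters and cell sets, and the plate as a block, since both classes of a plate share that batch (correlation of plate differences over genes 0.0075). RefSeq promoters of chromosome 18 were not used. Paralogs and overlapping genes may share reads. Some members of the lists are not reported here by name.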

Additional observations from a re-analysis of the deposited data

Results flagged for a closer look

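Hair cells that met the vestibular rule were also present in plates that the comparison did not use. With the z-scores of E18.5 and a mean of the hair cell list of 1 or more, the 3 plates of E16.5 held 9 hair cells among 1133 kept cells, and 7 of them were vestibular. They lay in 2 plates, 2 of 4 hair cells in one and 5 of 5 in another, and the remaining plate held none. The plates of E14.5, E15.5, E17.5 and P3 held 5 such hair cells among 2331 kept cells, with 0 vestibular, which at this number of cells does not show that they are absent there. No test was made.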

How the results depend on the processing

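The 1439 calls of edgeR's quasi-likelihood test became 2260 with DESeq2 (1123 higher), 687 without hair cells above the plate median of glial counts, 831 against all outer-scoring cells and 109 without cells within 0.5 of the threshold. The share of calls that were higher ran from 49.7% (DESeq2) to 61.9% (glial setting), against 55.0%, and the median of all genes was -0.106 in DESeq2 and -0.118 without a filter on low counts. Other scalings, filters and cell sets gave 1209 to 1709 calls. Without cells with under 8000 genes there were 1327 calls, of which 1069 were among the 1439. With the plate as replicate block there were 1365 calls, 1214 of them shared, and of the named genes only *Elavl4* (adjusted p = 0.062) and *Snap25* (0.054) lost theirs. The class held 26 vestibular cells, 25 with *Prr15* and *Skor1* alone, and 13 to 13 with either plate left out, where no count of calls can be given because 1 plate has no replicate. Of the 103 genes called in the set of 116, 62 stayed past the threshold of the test in every alternative that tested them, other than leaving out cells near the class threshold, where 65 of the 103 lost theirs. Log2 signs turned for *Anxa4* (0.021 without cells of few genes, 0.19 against inner-scoring cells), *Atoh1* (0.19 and 0.16 in the same settings), *Cacna1d* (0.40 against all outer-scoring cells), *Calb2* (2.19, and 1.64 against those with hair cell genes), *Gjb2* (1.72 glial setting, 1.40 and 1.14 outer), *Gjb6* (2.75, 2.94 and 4.03), *Ikzf2* (0.40 outer with hair cell genes), *Tecta* (0.64 glial, 0.81 outer), *Tectb* (-3.14 and -2.96 with the block, -15 threshold, -4.81 limma) and *Tmc1* (-0.20 inner). The cause was not tested. The thresholds of 8000 genes and of a hair cell mean of 1 were chosen after seeing the data.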
